A study of Saccharomyces cerevisiae with 9 samples.

Results

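The mitochondrial carriers of budding yeast were followed at the transcript level in cells that lack LOS1, which encodes a nuclear exporter of tRNA, and in their wild-type parent. The 31 genes were listed by symbol or systematic name, and 30 of them had a probe set annotated to them, of 5449 genes tested. YPR011C was not analysed here. Membership went by name, and a probe set was to be chosen by brightness (mean log2 expression over the 9 arrays) where a gene had several. Each of the 30 genes had 1, so no measured value was used to choose a probe set. The list itself, however, was drawn up with earlier results of these data known.

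Mitochondrial carriers are small membrane proteins, built from a repeated pair of transmembrane helices, that sit almost all in the inner mitochondrial membrane. They exchange nucleotides, phosphate, organic acids, amino acids, cofactors and metal ions between the cytosol and the matrix. In yeast several steps of amino acid synthesis lie in the matrix, so their substrates and products have to cross this membrane on carriers.

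RNA was measured on Affymetrix Yeast_2 arrays, 1 array per culture. There were 3 cultures of the haploid strain BY4742 with LOS1 deleted (cultures 7 to 9, titled los1_URA3) and 6 cultures of wild-type BY4742 (cultures 1 to 6). All cultures grew in rich glucose medium at 30 °C to an OD600 of 0.5. Each strain was represented by several isolates, the wild-type cultures being duplicates, and the labels do not tell which arrays share an isolate. P-values therefore measure the spread between cultures. BY4742 carries deletions or inactive alleles at several nutritional marker genes, URA3 among them, and belongs to the S288C lineage, whose SAL1 allele is known to be frameshifted.

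LOS1 transcript was at 3.65, 2.76 and 3.18 on the log2 scale in deletion cultures 7, 8 and 9, under the background level of 4.67, against 10.89 to 11.34 in wild type. URA3 was at 10.84 to 10.91 in the deletion and at 2.73 to 3.28, under background, in wild type, so the effects of LOS1 and of URA3 on any carrier cannot be told apart. The alpha-specific genes STE3, MF(ALPHA)1 and MF(ALPHA)2 of this alpha strain were at 12.13 to 13.97 in the deletion and 12.26 to 13.89 in wild type. The 4 a-specific genes STE2, MFA1, MFA2 and BAR1 were also above background on every array, at 5.31 to 7.71 in the deletion and 5.25 to 7.57 in wild type. Wild-type cultures 1 and 4 were both above the other wild-type cultures in 8 of 14 glucose-repressed genes (57.1%, against 13.6% of all genes). These 14 genes were listed with earlier results of these data known, so the share is a description only. Relative to the wild-type mean, the mean of the 14 genes was -0.60, -0.82 and -0.73 in deletion cultures 7, 8 and 9. In wild type it was 0.38 and 0.31 in cultures 1 and 4, and -0.05 to -0.30 in the other 4. The counts of carriers and of the related lists are therefore also given without cultures 1 and 4. All values are log2 expression, and differences are deletion minus wild type.

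Of the 30 carrier genes, 5 rose in the deletion and 0 fell, at an adjusted p under 0.05 in limma. The genes that rose were GGC1, YMC2, YMC1, DIC1 and OAC1, by 0.36 to 0.88 on the log2 scale. They made up 16.7% of the carriers, while 2.62% of all genes rose and 2.90% fell. At an unadjusted p under 0.05, 7 carriers (23.3%) were higher and 3 (10%) lower, while 8.85% of all genes were higher and 13.2% lower. Without wild-type cultures 1 and 4, the same 5 rose and 0 fell, while 73 of all genes rose and 73 fell. The median difference was 0.01 over the 30 carriers and -0.01 over all genes, and the median size of a difference was 0.0752 and 0.0735. The mean of the 30 carriers, relative to the wild-type mean, was 0.06, 0.08 and 0.13 in deletion cultures 7, 8 and 9 and -0.04 to 0.06 in wild type. For the 25 carriers that did not pass, that mean was -0.02, -0.02 and 0.04 in the deletion cultures and -0.05 to 0.07 in wild type.

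**Figure D1:**
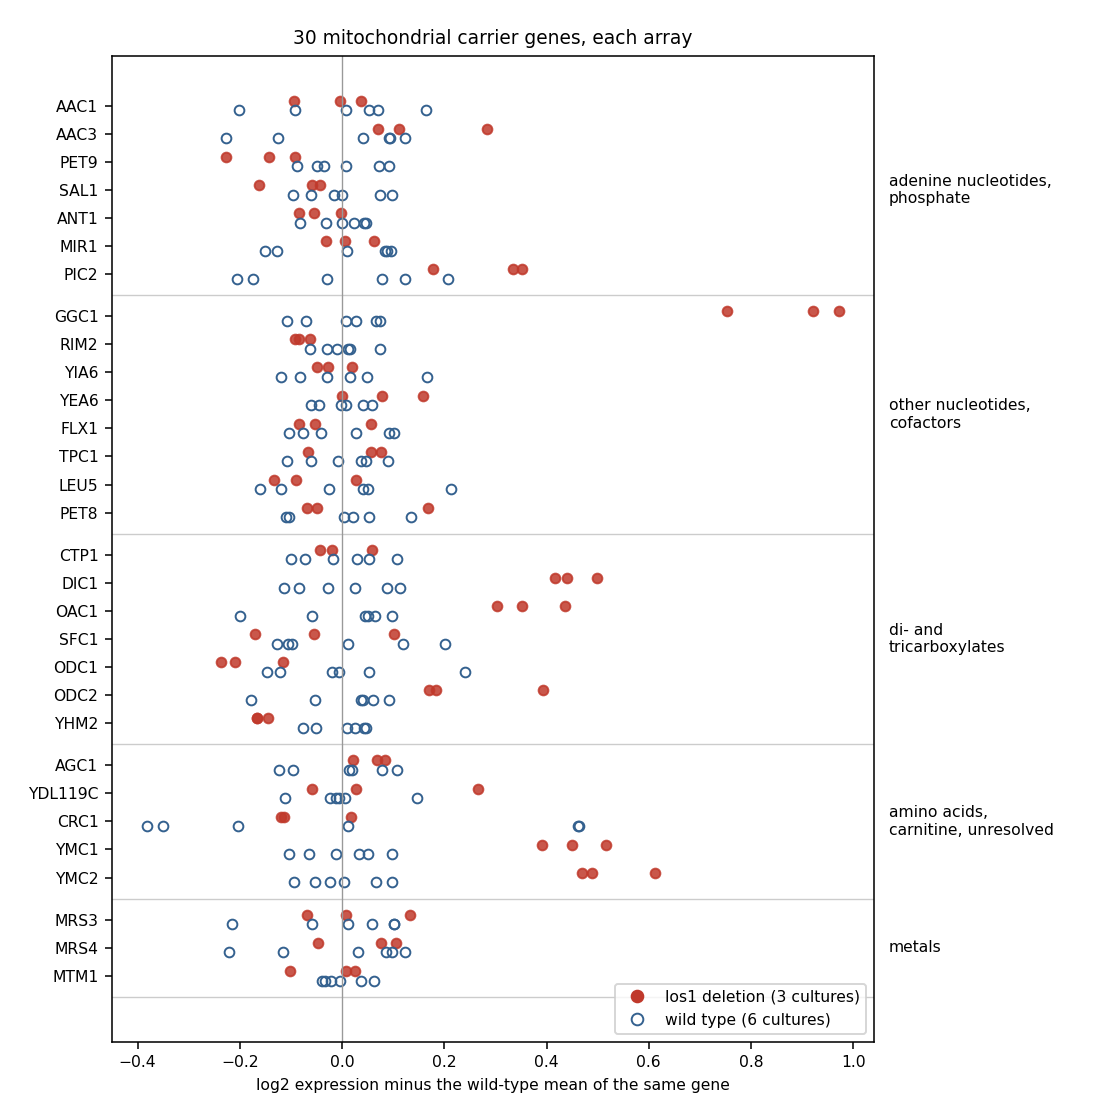
Each point is 1 array: log2 expression of a carrier gene minus the mean of the 6 wild-type arrays for that gene, with the 3 deletion cultures filled and above the 6 open wild-type cultures. In GGC1, DIC1, OAC1, YMC1 and YMC2 all 3 deletion points lie to the right of every wild-type point, and most other genes overlap.

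In 8 of the 30 carriers (26.7%) the groups did not overlap, against 12.6% of all genes. Of these, 6 were higher in the deletion (5.19% of all genes were) and 2 lower (7.38% of all genes were). Besides the 5 genes past the threshold, ODC2 was higher and PET9 and YHM2 were lower in every deletion culture than in any wild-type culture. Those 3 genes did not pass the limma test. Without wild-type cultures 1 and 4, 9 carriers (30%) had no overlap, 7 higher and 2 lower, against 14.9% of all genes.

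**Figure D2:**
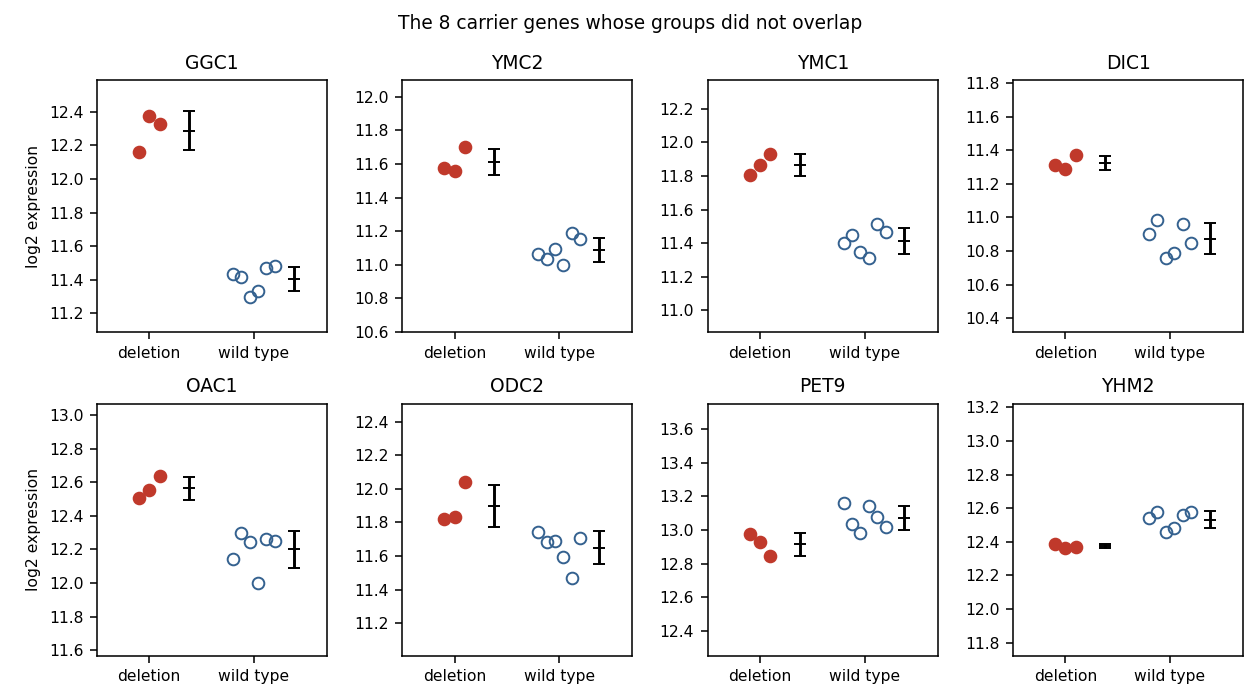
Log2 expression of the 8 carrier genes whose groups did not overlap, 1 point per array, deletion on the left and wild type on the right of each panel, with mean and SD as bars; every panel spans the same range on the log2 scale. The gap is widest in GGC1, where the deletion cultures lie at 12.16 to 12.38 and the wild-type cultures at 11.30 to 11.48.

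The carriers of nucleotides other than adenine nucleotides and of cofactors held the member with the largest rise. GGC1 encodes the GTP/GDP carrier, which brings GTP into the matrix and is needed to keep mitochondrial DNA and iron balance. It was at 12.16, 12.38 and 12.33 in deletion cultures 7, 8 and 9, against a lowest value of 11.30, a median of 11.42 and a highest value of 11.48 in wild type. The lowest deletion culture lay 0.68 above the highest wild-type culture. The difference was 0.88 ± 0.06 (SE), 1.84-fold (limma adjusted p = 2.21e-05), the rise of rank 8 among the 5449 genes.

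The other 7 measured carriers of this group did not pass, and their deletion and wild-type values overlapped. Over the whole group of 8 carriers, 12.5% rose and 12.5% had no overlap, against 2.62% and 12.6% of all genes. RIM2, the carrier of pyrimidine nucleotides, was at 10.00, 9.97 and 9.98 in the deletion and at 10.00 to 10.14 in wild type, a difference of -0.08 (limma adjusted p = 0.282). The NAD+ carriers YIA6 and YEA6 differed by -0.02 and 0.08 (limma adjusted p = 0.887 and 0.355). FLX1, which acts in mitochondrial FAD balance, differed by -0.03, and TPC1, the thiamine pyrophosphate carrier, by 0.02. LEU5, needed for coenzyme A in the matrix, differed by -0.07, and PET8, the S-adenosylmethionine carrier, by 0.02. The limma adjusted p of these 4 lay between 0.669 and 0.913.

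Among the 7 carriers of di- and tricarboxylates, 2 rose and 5 did not pass, while 2.62% of all genes rose. At an unadjusted p under 0.05, 3 were higher and 2 lower (71.4% together, against 22% of all genes). The groups did not overlap in 57.1% of the 7, 3 higher and 1 lower, against 12.6% of all genes. DIC1, which exchanges malate or succinate for phosphate, was at 11.31, 11.29 and 11.37 in deletion cultures 7, 8 and 9, against 10.76, 10.87 and 10.99 as the lowest, median and highest wild-type values. Every deletion culture was above every wild-type culture, by a difference of 0.45 ± 0.06 (SE), 1.37-fold (limma adjusted p = 0.00134). OAC1 carries oxaloacetate, sulfate and the leucine precursor isopropylmalate. Its values were 12.50, 12.55 and 12.64 in the deletion, and 12.00, 12.25 and 12.30 as the lowest, median and highest in wild type. OAC1 thus rose by 0.36 ± 0.07 (SE), 1.29-fold (limma adjusted p = 0.012), with no overlap. The OAC1 call was lost without deletion culture 8 (limma adjusted p = 0.053) and without deletion culture 9 (limma adjusted p = 0.0671).

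The related oxodicarboxylate carriers ODC1 and ODC2 export 2-oxoglutarate and 2-oxoadipate, precursors of glutamate and lysine. ODC2 was at 11.82, 11.83 and 12.04 in the deletion and at 11.47, 11.69 and 11.74 as lowest, median and highest in wild type, a difference of 0.25 (95% interval 0.09 to 0.41, limma adjusted p = 0.0691). ODC1 was at 9.60, 9.51 and 9.48 in the deletion and at 9.57, 9.71 and 9.96 in wild type, a difference of -0.19 (95% interval -0.36 to -0.01, limma adjusted p = 0.198). Neither passed. YHM2 exchanges citrate for 2-oxoglutarate. It was at 12.39, 12.37 and 12.37 in the deletion and at 12.46, 12.55 and 12.58 in wild type, a difference of -0.16 (95% interval -0.25 to -0.07, limma adjusted p = 0.0526). YHM2 had no overlap, and its call changed with the setting: it passed as lower in 3 of 17 alternative fits and in 9 of the 15 possible pairings of the wild-type arrays as isolates.

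CTP1, the citrate carrier, differed by 0.00 (95% interval -0.12 to 0.12). SFC1, the succinate-fumarate carrier that cells need on ethanol or acetate, was near background throughout. It lay under background on 2 of 3 deletion arrays and 4 of 6 wild-type arrays, at 4.48 to 4.76 in the deletion and 4.53 to 4.86 in wild type, so no fold is given.

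In the group of amino acid carriers, the carnitine carrier and carriers of unresolved substrate, the paralogs YMC1 and YMC2 rose together and the other 3 genes did not pass. Of the 5 genes in this group 40% rose, while 2.62% of all genes rose. YMC1 and YMC2 encode inner-membrane carriers that have been placed among the carriers of organic and amino acids. YMC2 was at 11.58, 11.56 and 11.70 in deletion cultures 7, 8 and 9, against 11.00, 11.08 and 11.19 as the lowest, median and highest wild-type values. It rose by 0.52 ± 0.05 (SE), 1.44-fold (limma adjusted p = 3.73e-04). For YMC1 the values were 11.80, 11.86 and 11.93 in the deletion and 11.31, 11.42 and 11.51 in wild type. The rise of YMC1 was 0.45 ± 0.05 (SE), 1.37-fold (limma adjusted p = 8.37e-04). Neither paralog overlapped between the groups.

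AGC1, which carries aspartate and glutamate, differed by 0.06 (limma adjusted p = 0.582). YDL119C (HEM25), the glycine carrier that serves haem synthesis, differed by 0.08 (limma adjusted p = 0.576). It was at 9.48, 9.81 and 9.57 in the deletion and at 9.43 to 9.69 in wild type, so culture 8 alone lay above the wild-type cultures. CRC1, the carnitine carrier of fatty acid breakdown, had the widest spread of the family among wild-type cultures (SD 0.38, against 0.08 among deletion cultures). It was above the background level of 4.67 on every array but close to it, at 4.97, 4.97 and 5.10 in the deletion. In wild type it was at 5.55 in both cultures 1 and 4 and at 4.70 to 5.10 in the others. Its difference was -0.07, with a 95% interval from -0.50 to 0.36.

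None of the 7 carriers of adenine nucleotides and phosphate passed in limma, while at an unadjusted p under 0.05, 1 was higher and 1 lower (28.6% together, against 22% of all genes). PET9, the main ADP/ATP carrier of respiring cells, was at 12.98, 12.93 and 12.84 in the deletion and at 12.98, 13.06 and 13.16 as lowest, median and highest in wild type. The groups were only 0.00521 apart, and the difference of -0.15 did not pass (95% interval -0.27 to -0.04, limma adjusted p = 0.12). AAC1, a minor ADP/ATP carrier, differed by -0.02, and AAC3, the ADP/ATP carrier made when oxygen is scarce, by 0.16 (limma adjusted p = 0.902 and 0.318). SAL1, a calcium-dependent ATP-Mg/phosphate carrier, differed by -0.09, and ANT1, the adenine nucleotide carrier of peroxisomes, by -0.05 (limma adjusted p = 0.367 and 0.555).

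MIR1 is the main phosphate carrier, and PIC2 carries phosphate and copper. PIC2 was at 10.69, 10.53 and 10.70 in the deletion and at 10.15, 10.38 and 10.56 as lowest, median and highest in wild type. Its difference of 0.29 was the largest among carriers that did not pass (95% interval 0.08 to 0.49, limma adjusted p = 0.106), and deletion culture 8 lay within the wild-type range. MIR1 was at 12.44 to 12.53 in the deletion and 12.32 to 12.57 in wild type, a difference of 0.01 (limma adjusted p = 0.935).

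In the 3 carriers linked to metals the differences between the groups lay between -0.02 and 0.04. The iron carriers MRS3 and MRS4 differed by 0.02 (95% interval -0.14 to 0.19) and 0.04 (95% interval -0.13 to 0.22). MTM1, which is needed for manganese superoxide dismutase activity, differed by -0.02 (95% interval -0.12 to 0.07). In limma 0 of the 3 passed, and 0 had an unadjusted p under 0.05, against 22% of all genes.

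**Figure D3:**
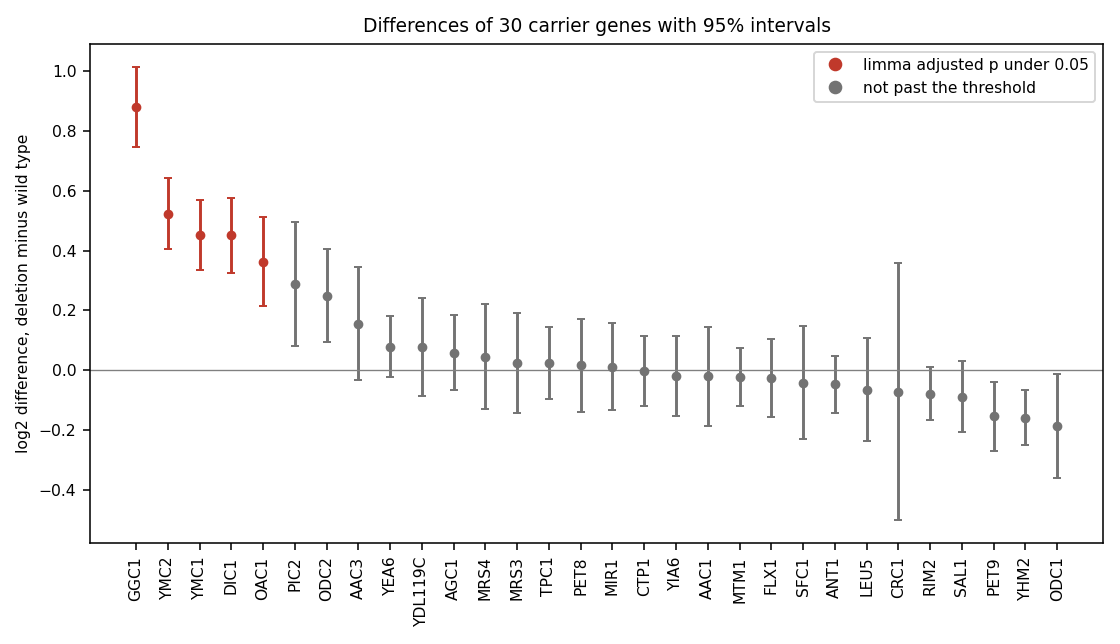
Log2 difference of each carrier gene, deletion minus wild type, with its unadjusted 95% interval from limma, ordered by size. The 5 genes past the threshold lie between 0.36 and 0.88, and over the other 25 genes the intervals run from -0.50 (CRC1) to 0.49 (PIC2).

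Related carriers were compared by the log2 ratio of the pair within each array, in 8 pairs, with p-values adjusted over the pairs. The exact test took all arrays as independent, although the wild-type cultures were duplicates of isolates. It was not repeated over the pairings of wild-type arrays, so its p-values do not allow for shared isolates. At an adjusted p under 0.05 in this test, responses differed in 2 pairs. ODC1 minus ODC2 averaged -2.37 ± 0.18 in the deletion (SD, n = 3) and -1.93 ± 0.15 in wild type (SD, n = 6), a difference of -0.44 (exact 2-sided permutation p = 0.0119, adjusted p = 0.0476). MIR1 minus PIC2 averaged 1.84 ± 0.11 in the deletion (SD, n = 3) and 2.12 ± 0.09 in wild type (SD, n = 6), a difference of -0.28 (exact 2-sided permutation p = 0.0119, adjusted p = 0.0476). In both pairs the groups did not overlap and p was the smallest that the 84 assignments of the arrays allow. With 1 array left out, the exact test gave both pairs adjusted p = 0.0476 without wild-type culture 3 and 0.0714 to 0.143 without any other array. Without cultures 1 and 4 both had adjusted p = 0.0762 (exact permutation).

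YMC1 minus YMC2 changed by -0.07 ± 0.03 (SE) between the groups, with adjusted p = 0.133 (exact permutation), so a difference between the 2 rises was not shown. It reached adjusted p = 0.0476 (exact permutation) without wild-type culture 3. AAC1 minus PET9 changed by 0.13 and AAC3 minus PET9 by 0.31 (exact permutation, adjusted p = 0.0635 and 0.133). AAC1 minus AAC3, YIA6 minus YEA6 and MRS3 minus MRS4 changed by -0.18, -0.10 and -0.02 (exact permutation, adjusted p = 0.367, 0.317 and 0.857).

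**Figure D4:**
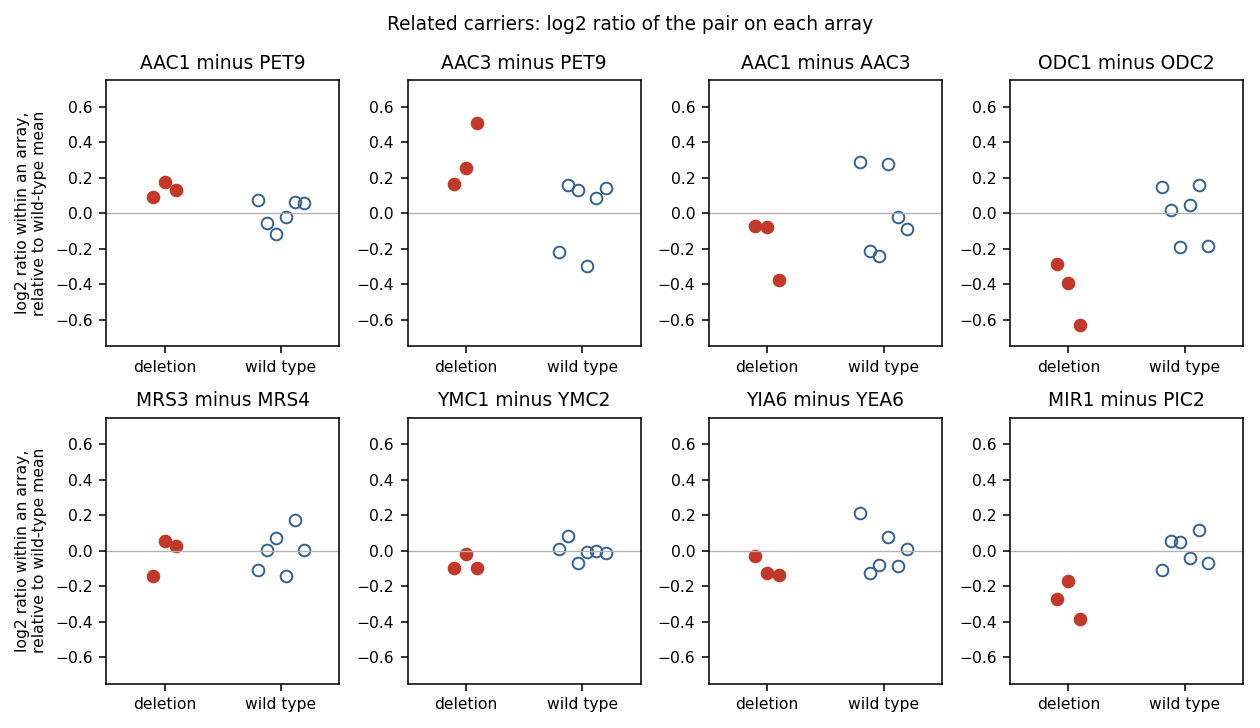
For 8 pairs of related carriers, the log2 ratio of the pair on each array relative to the wild-type mean of that ratio, deletion on the left and wild type on the right. All 3 deletion points lie under every wild-type point for ODC1 minus ODC2 and for MIR1 minus PIC2.

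The median SD of a carrier was 0.07 among deletion cultures and 0.09 among wild-type cultures, as over all genes (0.07 and 0.09). Deletion culture 9 was the highest deletion array for 19 of the 30 carriers (63.3%), against 38% of all genes, and for 4 of the 5 that rose. Relative to the wild-type mean, the mean of the 5 genes that rose was 0.48, 0.53 and 0.60 in deletion cultures 7, 8 and 9. In wild type it ran from -0.11 in culture 4 to 0.08 in culture 5. None of the 5 had its highest wild-type value in culture 1 or 4, and culture 4 was the lowest wild-type array for 3 of them. Cultures 1 and 4 were both above the other wild-type cultures in 4 carriers, PET9, SAL1, PIC2 and CRC1 (13.3%, against 13.6% of all genes).

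Carriers outside the list gave 1 further rise. ORT1, the ornithine carrier of arginine synthesis, was at 10.17, 10.32 and 10.46 in the deletion and at 9.34, 9.52 and 9.57 as lowest, median and highest in wild type. It rose by 0.84 ± 0.07 (SE), with no overlap (limma adjusted p = 1.39e-04), and also passed without wild-type cultures 1 and 4. MME1, a carrier of magnesium, differed by -0.11 (limma adjusted p = 0.189). YFR045W was not analysed here. The pyruvate carrier belongs to another protein family, and 0 of its 3 genes passed in limma (1 was lower at an unadjusted p under 0.05). Its subunit gene MPC3 was at 9.44, 8.81 and 8.99 in the deletion and ran from 9.68 to 11.74 in wild type, where cultures 1 and 4 were highest, at 11.74 and 11.62. The groups did not overlap in MPC3, and its difference of -1.60 did not pass (limma adjusted p = 0.0641), although it did in 7 of the 15 pairings of wild-type arrays and 2 of 17 alternative fits. Nor did that of MPC1 pass (0.13, limma adjusted p = 0.426). Without cultures 1 and 4, again 0 of the 3 passed.

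Carriers are made in the cytosol and imported through dedicated complexes. Of 15 genes of carrier import and the outer membrane, 0 rose and 1 fell, with a median difference of 0.04. At an unadjusted p under 0.05, 2 were higher and 2 lower (26.7% together, against 22% of all genes). Without wild-type cultures 1 and 4, 0 passed in limma (TOM70 adjusted p = 0.132). TOM70, the receptor that binds carrier precursors, fell by 0.18 on the log2 scale, with 12.02 to 12.04 in the deletion and 12.15 to 12.31 in wild type (limma adjusted p = 0.041). TOM70 no longer passed in 8 of 17 alternative fits, of which 6 left out 1 array. TOM40, the outer membrane channel, differed by -0.15 without passing (limma adjusted p = 0.0602), and passed in 6 of the 15 pairings and 4 of 17 alternative fits. POR2, an outer membrane porin, had the largest difference of this list, 0.25, and did not pass (limma adjusted p = 0.0754).

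Of 16 regulators linked to carrier genes, 1 rose and 1 fell, while 2.62% of all genes rose and 2.90% fell. Without wild-type cultures 1 and 4 only the fall, of ADR1, passed. At an unadjusted p under 0.05, 6 regulators were higher and 1 lower (43.8% together, against 22% of all genes). The groups did not overlap in 25% of the regulators, 3 higher and 1 lower, against 12.6% of all genes. ROX1, the repressor of genes for growth without oxygen, AAC3 among them, rose by 0.39 (limma adjusted p = 0.0264). ROX1 missed the threshold in 6 of 17 alternative fits, 4 of them with 1 array left out. ADR1, which switches on genes under glucose repression, dropped by 1.32 on the log2 scale (limma adjusted p = 1.28e-04). The respiratory regulators HAP1, HAP2, HAP3, HAP4 and HAP5 had differences from -0.04 to 0.12. LEU3, the activator of leucine synthesis genes, differed by 0.13 (limma adjusted p = 0.184).

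OAC1 is known as a target of Leu3. Of 5 further Leu3 targets, also listed with earlier results known, 4 rose, with a median difference of 0.35, while 2.62% of all genes rose. LEU4 rose by 0.51, BAT1 by 0.35, ILV2 by 0.35 and LEU1 by 0.31 (limma adjusted p = 2.56e-04, 0.0019, 0.0017 and 0.0272). Without wild-type cultures 1 and 4, 3 of the 5 rose, LEU1 being lost. LEU1 missed the threshold in 6 of 17 alternative fits, 4 of them with 1 array left out. ILV5 differed by 0.04 (limma adjusted p = 0.617). Whether Leu3 has a part in the rise of OAC1 was not tested.

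Of the 14 glucose-repressed genes 6 fell and 0 rose, with a median difference of -0.34, while 2.90% of all genes fell. The 14 genes were chosen with earlier results of these data known, so their share describes the list and is no test. MDH2, the cytosolic malate dehydrogenase, fell by 1.94 on the log2 scale (limma adjusted p = 4.01e-04), as did ADR1 (above). HXK1, MTH1 and HXT4 fell too, with differences of -1.53, -1.34 and -1.27. The galactokinase gene GAL1 fell, with a difference of -0.36 (limma adjusted p of these 4 between 0.0277 and 0.0489). These 4 calls were lost in 3 to 9 of 17 alternative fits. Without wild-type cultures 1 and 4, 5 of the 14 fell, GAL1 being lost. The other 8 genes of this list did not pass. Of these, HXT7, FBP1, ICL1 and CIT3 differed by -1.47, -0.31, -0.26 and -0.13. PCK1, ADH2, JEN1 and ACS1 differed by 0.00, -0.03, -0.04 and -0.03. Whether the falls of the 6 genes have a part in the rises of the carriers was not tested. Without cultures 1 and 4 the 5 rises were 0.30 to 0.87.

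**Figure D5:**
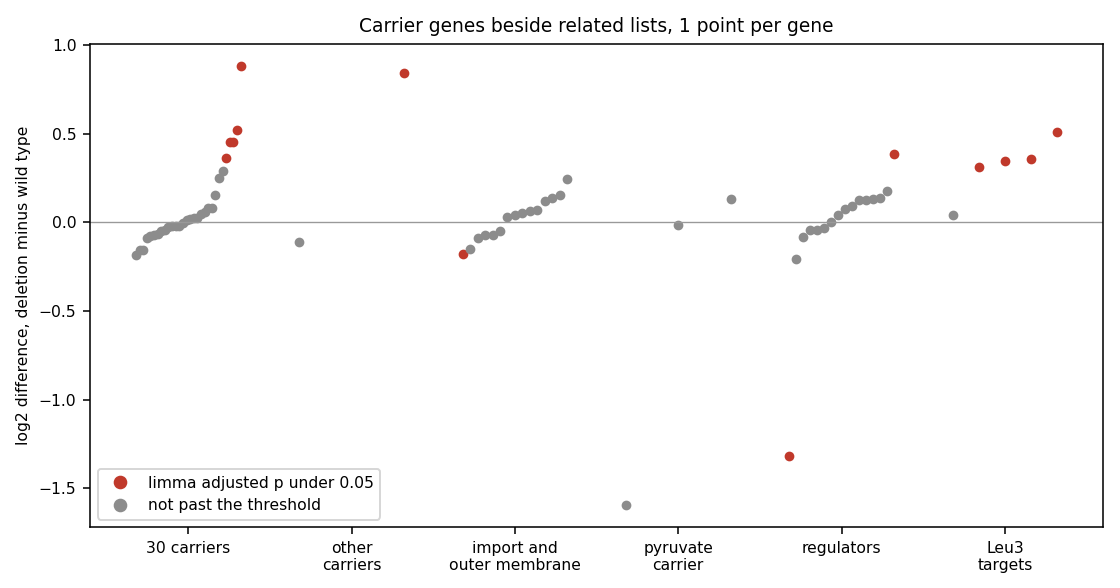
Log2 difference, deletion minus wild type, 1 point per gene, for the 30 carriers and 5 related lists, with genes past the limma threshold in red. The 5 carriers that rose stand at 0.36 to 0.88, ORT1 at 0.84 and the 4 Leu3 targets that rose at 0.31 to 0.51.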

How the data were processed

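The authors deposited log2 expression values per probe set, made with RMA per the submitters' processing notes. In RMA, arrays are background corrected and forced to a common distribution before probes are summarised. A value is thus read against the rest of its array, a change common to most transcripts is invisible, and dim genes are compressed. Its version is not given in the sources used here.

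Of 10928 probe sets, 7244 named 1 gene, 1 several and 3683 none. Gene names were updated through the S. cerevisiae R64 gene table, which 5498 probe sets matched, and the brightest of several probe sets was kept, leaving 5449 genes. The other 1746 named probe sets, of S. pombe, gave the background level as their 95th percentile, 4.67. Precision is limited by how many arrays there were.

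Differences were fitted with limma 3.58.1 (lmFit, eBayes, 2-sided) in R 4.3.3 over all genes, with Benjamini-Hochberg adjustment and a threshold of 0.05. The script was tested on simulated data. Pairs of related carriers were compared by exact permutation over 84 assignments, with the arrays taken as independent. The pairings of wild-type arrays as isolates were run in limma only. The members and lists were chosen with earlier results of these data known. Named were all 30 carriers, LOS1, URA3 and, from each list of related or glucose-repressed genes, members past the threshold and the 2 with the smallest p. The genes HAP1, HAP2, HAP3, HAP4, HAP5, LEU3, ILV5 and POR2 and the mating-type markers were named after their values were seen. So were the 8 glucose-repressed genes that did not pass.

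Alternatives were median centring, repeated quantile normalization, leaving out dim genes, averaging probe sets, testing all probe sets, an intensity trend with robust prior (statmod 1.5.0), array weights, the 15 pairings of wild-type arrays as isolates, leaving out each array or wild-type cultures 1 and 4, and an adjusted p of 0.01. Repeating the no-overlap and related-list counts without cultures 1 and 4 was added after the data were seen.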

Additional observations from a re-analysis of the deposited data

Results flagged for a closer look

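GAL1 in wild-type culture 5, at 7.98, lay apart from the other wild-type cultures, which were at 8.24 to 8.37. Chance alone flags about 1 in 20 groups, and of 49 genes checked in the 6 wild-type arrays 1 stood out, which was not a carrier.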

How the results depend on the processing

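No paired analysis was possible because the labels name no pairing of deletion and wild-type cultures. The count of carriers that rose was 5, and 4 to 6 over all the alternatives. It was 6, with ODC2 added, under median centring, the intensity trend with robust prior and array weights, and in 1 of the 15 pairings of wild-type arrays. It was 4, without OAC1, at an adjusted p of 0.01 and without deletion culture 8 or 9. GGC1, DIC1, YMC1 and YMC2 passed in all 17 alternative fits and all 15 pairings. The count of carriers that fell was 0, and 0 to 1 with 1 array left out. It was 1, the gene being YHM2, under the intensity trend, under array weights, without wild-type culture 3 and in 9 of the 15 pairings. The median difference of the carriers lay between -0.01 and 0.04. Over the fits that left out 1 array, ODC1 minus ODC2 ran from -0.51 to -0.34 (exact adjusted p from 0.0476 to 0.143), MIR1 minus PIC2 from -0.33 to -0.22 (exact adjusted p from 0.0476 to 0.143) and YMC1 minus YMC2 from -0.097 to -0.054. Without wild-type cultures 1 and 4, ODC1 minus ODC2 was -0.39 and MIR1 minus PIC2 was -0.31. With fewer arrays the smallest possible exact p is larger, which alone can end these calls. Among carriers that did not pass, 12 changed sign in at least 1 alternative. The number of all genes that rose and fell moved with the setting: 143 and 158 as reported, 175 and 126 after repeated quantile normalization. With array weights it was 235 and 263, and with all probe sets tested 76 and 76. It was 216 and 262 without wild-type culture 5, and 69 and 57 without deletion culture 8.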
